A study of Rattus norvegicus with 9 samples.

Results

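Fgf21 encodes fibroblast growth factor 21, a hormone that the liver releases into the blood, and Fgfr1, Fgfr2, Fgfr3 and Fgfr4 encode the receptor tyrosine kinases through which fibroblast growth factors (FGFs) act. These genes and Klb, which encodes the co-receptor beta-Klotho, were taken by symbol from the deposited gene table. Of the 6 genes, 5 had a row under their symbol among the 32883 genes of the table, and Klb was not analysed here. The remaining 5 genes all passed the filter on low counts in every comparison.

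The study followed Pien Tze Huang (PZH), a Chinese patent medicine, in rats given diethylnitrosamine (DEN), a liver carcinogen that leads through fibrosis and cirrhosis to hepatocellular carcinoma (HCC). Liver RNA of 9 male Sprague-Dawley rats was sequenced, 1 library per rat. Normal control rats 1, 3 and 12 received a normal diet, DEN model rats 13, 17 and 24 received DEN, and DEN + PZH rats 27, 28 and 42 received DEN and PZH. For both DEN groups the protocol was a weekly intraperitoneal injection of DEN at 0.01% over 16 weeks. The PZH dose, low or high, and the week of collection of the sequenced rats are not given in the sources used here, nor is their age. According to the study's methods, rats were fasted before collection. The letter in each rat's name (N, M or G) set its group. The treatment tag deposited for the M rats says PZH, which goes against the methods, where 3 DEN model rats are listed.

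The libraries held 14922973 to 27161496 counted reads, the most in DEN + PZH rat 27. Levels below are CPM, a gene's read count relative to the library total scaled by a TMM factor, and these factors were 0.731 to 0.799 in normal control, 1.21 to 1.58 in DEN model and 0.863 to 0.941 in DEN + PZH rats. Scaling by library totals instead moved the median over all genes, in log2 fold change, by 0.86 in DEN model against normal control and by -0.67 in DEN + PZH against DEN model. A gene was called changed at a Benjamini-Hochberg adjusted p under 0.05 over all genes tested with edgeR's quasi-likelihood test. With library totals 9084 of 14255 genes were called in DEN model against normal control, 89.5% of them higher. In DEN + PZH against DEN model 6252 of 14272 were called, 8.89% of them higher.

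FGF21 is known as a signal of fasting and of cell stress. Its transcription in hepatocytes is driven by PPAR alpha during fasting and by Atf4 and its partners under amino acid or endoplasmic reticulum stress, and the hormone acts mainly on fat and brain through Fgfr1 bound to beta-Klotho. Fgfr4 with beta-Klotho is the receptor by which hepatocytes sense the intestinal hormone FGF15/19 and lower bile acid synthesis, whereas Fgfr1, Fgfr2 and Fgfr3 serve mostly paracrine FGFs in mesenchymal, ductular and other cells.

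The data showed a fall of Fgf21 and Fgfr4 mRNA and a rise of Fgfr1, Fgfr2 and Fgfr3 mRNA in the DEN model livers. With TMM scaling, DEN + PZH livers had more Fgf21 and Fgfr4 and less Fgfr2 mRNA than DEN model livers, and with library totals the first and second of these calls were lost. The make-up of the receptor mRNA went from a predominance of Fgfr4 in normal control livers to one of Fgfr3 and Fgfr2 in DEN model livers. The plot of levels by rat shows these values.

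**Figure D1:**
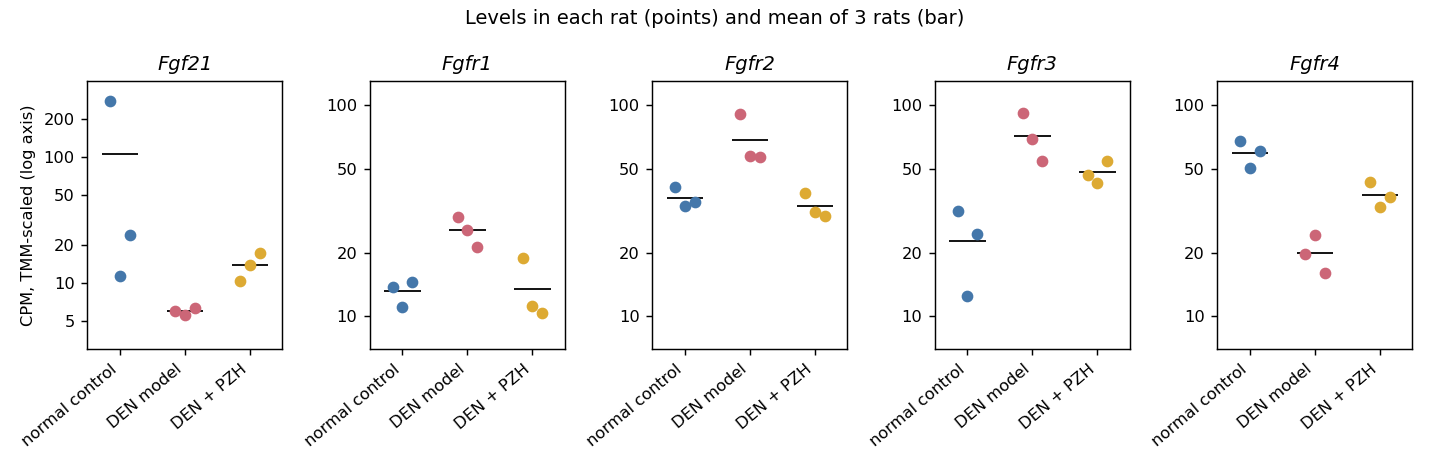
Level of each gene in CPM (vertical log axis, TMM-scaled) in the 9 rats by group, with a point for each rat and a bar for the mean of 3 rats. In Fgf21, normal control rat 1 lies at 279 CPM, far above the other two rats of its group at 11.4 and 24.0, and the DEN model rats lie between 5.59 and 6.31.

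Fgf21 lies in the authors' file on chromosome 1, from 101595579 to 101596822, in coordinates whose build is not given in the sources used here. Its upstream sequence is shown because it holds letters known from stress control of the gene, and that of Fgfr4 because it is the other gene that was lower in DEN model and higher again in DEN + PZH livers. Both are the 250 bases before the annotated start site in RefSeq's GRCr8 assembly, written 5′ to 3′ on the gene's strand (Fgf21 chr1:105221377-105221626, minus strand, and Fgfr4 chr17:9481390-9481639, minus strand). Capitals mark the C/EBP-ATF element, the E-box and the TATA box in Fgf21, and the GC boxes in Fgfr4.
Fgf21: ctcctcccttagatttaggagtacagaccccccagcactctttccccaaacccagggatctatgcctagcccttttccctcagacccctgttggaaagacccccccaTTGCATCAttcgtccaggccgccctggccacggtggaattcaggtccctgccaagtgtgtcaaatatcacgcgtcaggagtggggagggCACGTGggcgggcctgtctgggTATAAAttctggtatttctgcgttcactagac
Fgfr4: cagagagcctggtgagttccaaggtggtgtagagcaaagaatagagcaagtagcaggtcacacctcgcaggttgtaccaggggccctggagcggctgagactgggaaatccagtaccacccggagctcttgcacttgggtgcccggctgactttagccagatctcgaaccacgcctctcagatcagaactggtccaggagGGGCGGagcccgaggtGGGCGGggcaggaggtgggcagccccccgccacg

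The letters TGATGCAA of the C/EBP-ATF element, to which Atf4 and Ddit3 (CHOP) dimers with C/EBP factors can bind, stand on the reverse strand 143 to 136 bases upstream of the Fgf21 start site. Searched on both strands, they occur in 0.693% of the 33469 RefSeq promoters of the same length. The E-box CACGTG lies 54 to 49 bases upstream and occurs in 5.59% of promoters. The TATA box TATAAA lies 32 to 27 bases upstream and occurs in 12.9%. Fgf21 also holds the GC box GGGCGG, found in 30.5% of promoters, on both strands, and its copy at 49 to 44 bases upstream overlaps the E-box by its first base. Neither the PPAR-type direct repeat DR1, searched as a pair of AGGTCA half-sites with any base N between them (0.0508% of promoters), nor the half-site AGGTCA alone (14.1%) is in this window of Fgf21.

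The receptor promoters differ in base composition and motifs. Fgfr4 holds 2 GC boxes and 1 AGGTCA half-site at 196 to 191 bases upstream, and Fgfr2 holds an AGGTCA half-site at 231 to 226 bases upstream. No TATA box is in the windows of Fgfr2, Fgfr3 or Fgfr4. Fgfr2 and Fgfr3, whose promoters are not printed, have GC contents of 76.8% and 74.4%, at or above those of 97.8% and 96.4% of promoters, against 62.8% in Fgfr4 and 56.4% in Fgf21. Both hold GC boxes and a CCAAT box, the letters CCAAT being found in 34.0% of promoters. Of the 6 genes, 5 matched the promoter table, and the promoter of Fgfr1 was not analysed here. A match of letters describes the window and was not tested as a binding site.

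Fgf21 mRNA was at 279, 11.4 and 24.0 CPM in normal control rats 1, 3 and 12. In DEN model rats 13, 17 and 24 it was at 5.98, 5.59 and 6.31 CPM. In DEN + PZH rats 27, 28 and 42 it was at 10.3, 14.0 and 17.4 CPM. The 3 DEN model rats were the lowest of all 9 and close to each other, and the DEN + PZH rats lay above all of them. Rats 28 and 42 lay within the range of the normal control rats, whose top was set by rat 1, and rat 27 lay just below its lowest value. The counts behind these values were 3576 reads in normal control rat 1 and 113 to 314 reads in the other 8 rats.

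Fgf21 was lower in DEN model than in normal control rats by a log2 fold change of -4.09 ± 1.07 (SE, n = 3 rats in each group, edgeR adjusted p = 0.014). Without normal control rat 1 the log2 fold change was -1.57 ± 0.33 (adjusted p = 0.012), so that the size of the difference rests on that rat while the call does not. On the scale of library totals it was -3.28 (adjusted p = 0.015). In the authors' FPKM, which follow library totals, the ranges overlapped, with 13.3 in normal control rat 3 against 10.8 to 15.9 in the DEN model rats, and limma on log2(FPKM + 0.1) gave -1.95 (adjusted p = 0.13).

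Fgf21 was higher in DEN + PZH than in DEN model rats by a log2 fold change of 1.24 ± 0.24 (adjusted p = 0.016), or 2.35-fold, and each DEN + PZH rat was above each DEN model rat. Scaled by library totals the difference was 0.57 with an adjusted p of 0.14. Leaving out DEN model rat 13 gave 1.23 (adjusted p = 0.071) and leaving out rat 24 gave 1.28 (adjusted p = 0.052), so the size was kept but the call was not. Against normal control, Fgf21 in DEN + PZH rats had a log2 fold change of -2.88 ± 1.00 that did not pass the test (adjusted p = 0.15), and of -0.36 without normal control rat 1.

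Fgfr4, the main FGF receptor of hepatocytes, was at 67.7, 50.3 and 60.3 CPM in normal control rats 1, 3 and 12. It was at 19.6, 24.1 and 16.0 CPM in DEN model rats 13, 17 and 24, and at 43.1, 33.0 and 36.7 CPM in DEN + PZH rats 27, 28 and 42. The groups formed 3 separate bands, with the DEN + PZH rats between the other two groups. The fall in DEN model against normal control was -1.56 ± 0.20 in log2 fold change (adjusted p = 0.00065), or 2.95-fold, and -0.73 on library totals (adjusted p = 0.013). The rise in DEN + PZH against DEN model was 0.94 ± 0.21 (adjusted p = 0.022), or 1.92-fold. On library totals this rise was 0.29 and did not pass (adjusted p = 0.25). Leaving out DEN model rat 13 or 24 or DEN + PZH rat 42 also ended the call, with log2 fold changes of 0.81 to 0.98. Compared with normal control, Fgfr4 in DEN + PZH rats was at a log2 fold change of -0.65 ± 0.19 without passing (adjusted p = 0.094), and passed without DEN + PZH rat 27 (-0.77, adjusted p = 0.046).

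Fgfr3, a receptor of paracrine FGFs, was at 31.3, 12.4 and 24.4 CPM in normal control rats 1, 3 and 12. DEN model rats 13, 17 and 24 had 91.3, 69.0 and 54.5 CPM, and DEN + PZH rats 27, 28 and 42 had 46.8, 42.8 and 54.6 CPM. The DEN + PZH rats thus lay above all normal control rats, and rat 42 reached the lowest DEN model rat. The rise in DEN model against normal control was 1.68 ± 0.33 (adjusted p = 0.0039), or 3.20-fold, the largest rise among the 4 receptors on this scale. In DEN + PZH against DEN model the log2 fold change of -0.55 ± 0.22 did not pass (adjusted p = 0.11), and on library totals it was -1.22 and passed (adjusted p = 0.0068). Against normal control the DEN + PZH rats had 1.10 ± 0.30 (adjusted p = 0.074), which passed with DESeq2 (1.09, adjusted p = 0.016).

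Fgfr2, the receptor of the mesenchymal ligands Fgf7 and Fgf10 in its epithelial form, was at 41.0, 33.1 and 34.9 CPM in normal control rats 1, 3 and 12. It was at 91.0, 57.2 and 56.5 CPM in DEN model rats 13, 17 and 24 and at 38.4, 31.2 and 29.8 CPM in DEN + PZH rats 27, 28 and 42. Normal control and DEN + PZH rats shared one range, and all DEN model rats were above it. The rise in DEN model against normal control was 0.93 ± 0.22 (adjusted p = 0.0087), and the fall in DEN + PZH against DEN model was -1.02 ± 0.23 (adjusted p = 0.024). Without DEN model rat 13, the highest, the fall was -0.76 (adjusted p = 0.09), and the call was also lost without DEN model rat 24 or DEN + PZH rat 28 or 42.

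Fgfr1, which with beta-Klotho forms the FGF21 receptor of fat, was at 13.7, 11.1 and 14.5 CPM in normal control rats 1, 3 and 12. It was at 29.5, 25.6 and 21.2 CPM in DEN model rats 13, 17 and 24 and at 18.8, 11.2 and 10.4 CPM in DEN + PZH rats 27, 28 and 42. All DEN model rats were above all others, and of the DEN + PZH rats only rat 27 was above the normal control range. The rise in DEN model was 0.98 ± 0.20 (adjusted p = 0.0048). The difference of DEN + PZH from DEN model, -0.89 ± 0.27, narrowly missed the threshold (adjusted p = 0.055) and passed with DESeq2 (adjusted p = 0.03), on library totals (-1.57, adjusted p = 0.0038) and without DEN + PZH rat 27 (-1.22, adjusted p = 0.027). Between DEN + PZH and normal control, Fgfr1 and Fgfr2 differed by 0.05 and -0.12, with 95% intervals of -0.57 to 0.68 and -0.55 to 0.31.

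**Figure D2:**
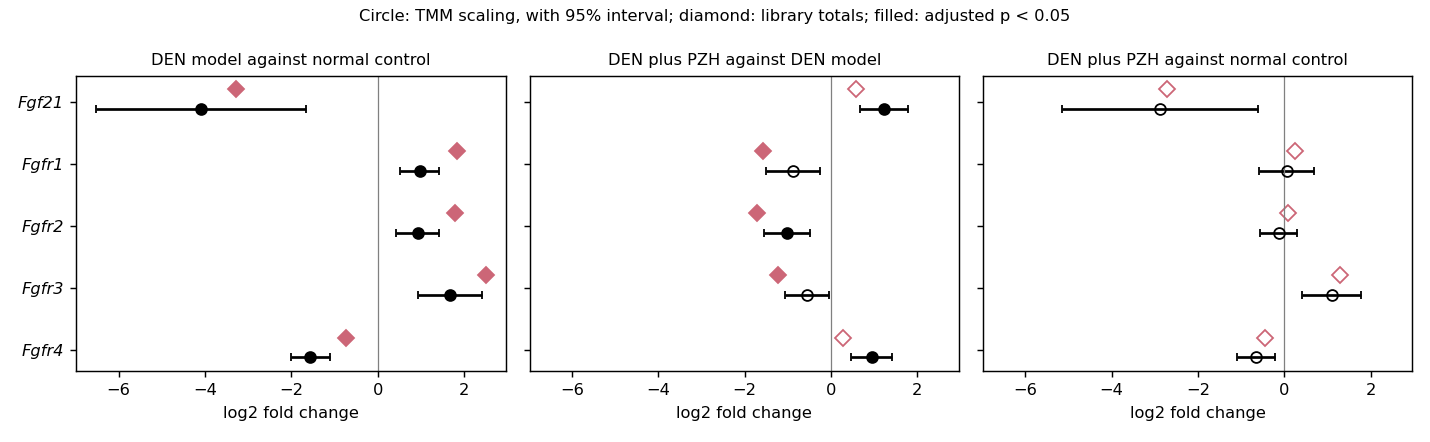
Log2 fold change of each gene in the 3 comparisons (horizontal axis), with TMM scaling and its 95% interval as circles and with library totals as diamonds, filled where the adjusted p was under 0.05. With library totals all 4 receptors shift to higher values in DEN model against normal control, and in DEN + PZH against DEN model the Fgf21 and Fgfr4 values shrink to 0.57 and 0.29 while the other receptors fall further.

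In DEN model against normal control, 3 of the 5 genes rose, where 25.3% of the 14255 genes tested rose, and 2 fell, where 20.5% fell. The groups did not overlap in CPM in any of the 5 genes, as in 58.8% of all genes. The study's own thresholds (absolute log2 fold change above 2 and unadjusted P under 0.001) were applied to the edgeR fits made here. None of the 5 passed them, against 12.3% of genes. In DEN + PZH against DEN model, 2 genes rose against 8.72% of all genes and 1 fell against 10.3%, and 4 did not overlap against 40.9%. There again 0 passed the study's thresholds, against 2.43% of genes. In DEN + PZH against normal control 0 of 5 were called by edgeR, where 4.07% of genes rose and 1.15% fell. In that comparison 3 genes had an unadjusted p under 0.05, DESeq2 called 1 gene (Fgfr3), 2 genes did not overlap against 24.2% of all genes, and 0 passed the study's thresholds against 2.32%. The 3 comparisons share samples and are not independent of each other.

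Levels can be set side by side between genes only per transcript length, in FPKM. In normal control livers Fgfr4 was the highest receptor, at 13.3 ± 2.49 FPKM (mean ± SD, n = 3), above Fgfr2 at 5.91 ± 0.884, Fgfr3 at 4.42 ± 1.99 and Fgfr1 at 2.67 ± 0.481. The range of Fgfr4 did not overlap that of Fgfr2, whereas Fgfr2, Fgfr3 and Fgfr1 overlapped with their neighbours in this order. In DEN model livers the order was Fgfr3 at 25.3 ± 7.31, Fgfr2 at 20.5 ± 7.10, Fgfr1 at 9.48 ± 1.78 and Fgfr4 at 8.01 ± 0.666 FPKM, and all neighbours overlapped except Fgfr2 and Fgfr1. In DEN + PZH livers Fgfr3 at 10.9 ± 1.62 and Fgfr4 at 9.80 ± 0.951 FPKM overlapped, and Fgfr2 at 6.30 ± 0.564 and Fgfr1 at 3.18 ± 0.927 followed without overlap.

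The share of each receptor in the summed FPKM of the 4 receptors does not depend on the scaling between libraries. Fgfr4 made up 50.8 ± 1.80% of receptor mRNA in normal control livers (49.3%, 52.8% and 50.2% in rats 1, 3 and 12). It made up 13.1 ± 2.98% in DEN model livers (10.2%, 16.2% and 12.9% in rats 13, 17 and 24) and 32.5 ± 0.890% in DEN + PZH livers (33.5%, 32.0% and 31.9% in rats 27, 28 and 42). Its 3 groups lay far apart relative to the spread within each. The share of Fgfr3 was 16.2 ± 4.40% in normal control, 39.8 ± 1.54% in DEN model and 36.1 ± 4.77% in DEN + PZH livers, so the DEN groups overlapped with each other and not with normal control. Fgfr2 took 22.8 ± 2.23%, 32.0 ± 3.48% and 20.9 ± 1.77%, and Fgfr1 took 10.2 ± 1.01%, 15.1 ± 0.963% and 10.5 ± 2.58% in the same order of groups. The DEN + PZH livers thus overlapped with normal control livers in the shares of Fgfr1 and Fgfr2, with DEN model livers in the share of Fgfr3, and with neither in the share of Fgfr4.

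**Figure D3:**
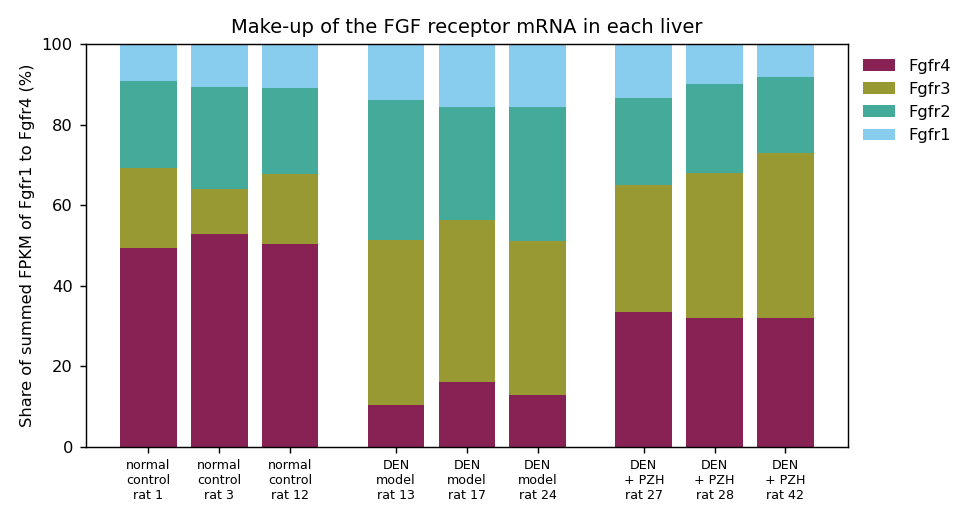
Share of Fgfr1, Fgfr2, Fgfr3 and Fgfr4 in their summed FPKM (vertical axis, percent) in each rat, by group. Fgfr4 takes 49.3 to 52.8% of each normal control bar, 10.2 to 16.2% of each DEN model bar and 31.9 to 33.5% of each DEN + PZH bar.

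Ratios between receptors within a library gave the same picture with a test. The FPKM ratio of Fgfr3 to Fgfr4 was 0.401, 0.214 and 0.350 in normal control rats 1, 3 and 12. It was 4.02, 2.47 and 2.95 in DEN model rats 13, 17 and 24, and 0.940, 1.12 and 1.29 in DEN + PZH rats 27, 28 and 42. Every DEN model liver held more Fgfr3 than Fgfr4 and every normal control liver less. The mean log2 ratio was 3.31 higher in DEN model than in normal control, 9.92-fold, and 1.48 lower in DEN + PZH than in DEN model, 2.79-fold. The log2 ratio of Fgfr2 to Fgfr4 differed by 2.47 and -1.94 in these comparisons, and that of Fgfr1 to Fgfr4 by 2.54 and -1.89. In DEN + PZH against normal control the 3 ratios were still higher, by 1.83 for Fgfr3, 0.52 for Fgfr2 and 0.66 for Fgfr1. In all 9 tests the groups did not overlap and the exact two-sided permutation p was 0.1 (0.1 after Benjamini-Hochberg adjustment), the smallest that 3 rats against 3 allow, so none could pass 0.05.

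Genes that control Fgf21 were lower in DEN model livers in most cases. Of 14 regulators of its transcription and turnover tested, 9 fell and 1 rose in DEN model against normal control, and their median was -0.94 in log2 fold change, against 0.03 over all genes. Creb3l3, a liver transcription factor that works with PPAR alpha on Fgf21, fell by 2.02 ± 0.31 in log2 fold change (adjusted p = 0.0014). Rxra, the partner of PPAR alpha, fell by 1.94 ± 0.35, Nr1h4, the bile acid receptor FXR, by 1.88 ± 0.23, and Ppara itself by 1.44 ± 0.28 (adjusted p = 0.0037). Ppara was at 96.9, 89.9 and 93.1 CPM in normal control, at 25.6, 50.6 and 25.6 CPM in DEN model and at 79.0, 80.3 and 75.2 CPM in DEN + PZH rats, a separate band in each group. The 1 regulator that rose was Fap, a protease known to inactivate circulating FGF21. It was at 0 counts in all normal control rats and at 2.93, 1.09 and 1.87 CPM in DEN model rats, at least 8.23-fold higher than a floor of 3 counts per library. Scaled by library totals, 5 regulators fell and 4 rose, and Atf4 and Xbp1 changed sign. With TMM scaling, 25.3% of all genes tested rose and 20.5% fell in this comparison. In DEN + PZH against DEN model 8.72% rose and 10.3% fell, and these shares apply to every list below.

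The DEN + PZH livers had 4 of the 14 regulators higher and 1 lower than the DEN model livers, with a median of 0.83 against 0.01 over all genes. Ppara rose by 1.23 ± 0.28 (adjusted p = 0.024), Creb3l3 by 1.27 ± 0.31 and Nr1h4 by 1.13 ± 0.25, and the fourth was Thrb, a thyroid hormone receptor, with 1.37 ± 0.20. Fap fell by 3.57 ± 0.80 (adjusted p = 0.022). On library totals 1 regulator rose and 4 fell. Against normal control, 1 of 13 regulators tested in DEN + PZH rats was lower, Nr1h4 at -0.79 ± 0.19 (adjusted p = 0.045), and 0 without normal control rat 1 or on library totals, whereas DESeq2 called 2.

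The targets that PPAR alpha induces beside Fgf21 on fasting fell almost as a whole in DEN model livers. Of 13 tested, 12 were lower and 0 higher than in normal control, with a median of -2.89 in log2 fold change, and on library totals 10 were lower. Cyp4a2, a fatty acid omega-hydroxylase, was at 7182, 785 and 2353 CPM in normal control rats 1, 3 and 12. It was at 30.6, 38.0 and 39.4 CPM in DEN model and at 1921, 1655 and 619 CPM in DEN + PZH rats, so that it fell by 6.54 ± 0.84 in DEN model and rose by 5.31 ± 0.49 in DEN + PZH against DEN model. The fatty acid binding protein gene Fabp1 fell by 4.36 ± 0.61, Ehhadh, an enzyme of peroxisomal beta-oxidation, by 3.10 ± 0.31. Pdk4, which restrains glucose oxidation, fell by 3.06 ± 0.33. With PZH, 9 of the 13 rose and 0 fell against DEN model (median 1.57), Fabp1 by 3.28 ± 0.83, Ehhadh by 2.07 ± 0.29 and Pdk4 by 1.70 ± 0.37. Against normal control 5 were still lower in DEN + PZH livers, Ehhadh at -1.07 ± 0.25 and Pdk4 at -1.40 ± 0.33 among them, and 8 did not pass. That count was 2 on library totals. Without normal control rat 1, 0 of 13 were called by edgeR.

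The stress genes that Atf4 induces beside Fgf21 did not move one way. Of 10 tested in DEN model against normal control, 4 rose, 2 fell and 4 did not pass. There 25.3% of all genes tested rose and 20.5% fell. Vldlr, a lipoprotein receptor, rose by 4.92 ± 0.40, and Phgdh and Psat1, enzymes of serine synthesis, by 3.13 ± 0.62 and 2.48 ± 0.49. Chac1, which degrades glutathione, fell by 2.97 ± 0.47. With PZH, 2 rose and 3 fell against DEN model, with Chac1 at 1.97 ± 0.54 and Vldlr at -1.65 ± 0.37, and on library totals 0 rose and 5 fell. Against normal control 1 was higher (Vldlr, 3.24 ± 0.50) and 1 lower (Sesn2, -1.23 ± 0.29, not called on library totals or without normal control rat 1).

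Normal control rat 1, with the highest Fgf21, also stood apart in several of these genes, which were picked out after their values were seen. Trib3, an Atf4 and Ddit3 target, was at 88.5 CPM in this rat and at 10.5 and 14.1 CPM in rats 3 and 12. Acot1, a PPAR alpha target, was at 34.4 CPM against 2.77 and 6.26, and Atf3 at 26.2 CPM against 3.27 and 11.5. Ppara did not stand apart in this rat (96.9 CPM against 89.9 and 93.1). The 10 Atf4 stress genes summed to 275, 118 and 283 CPM in normal control rats 1, 3 and 12. The most abundant genes weigh most in such a sum. Among these rats Chac1, Sesn2, Ddit4 and Vldlr were highest in rat 12 and the other Atf4 stress genes in rat 1. Atf4 itself was at 202, 147 and 122 CPM in rats 1, 3 and 12. The 13 PPAR alpha targets summed to 23072, 11559 and 16555 CPM. The part of these genes in the Fgf21 level of rat 1 was not tested.

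**Figure D4:**
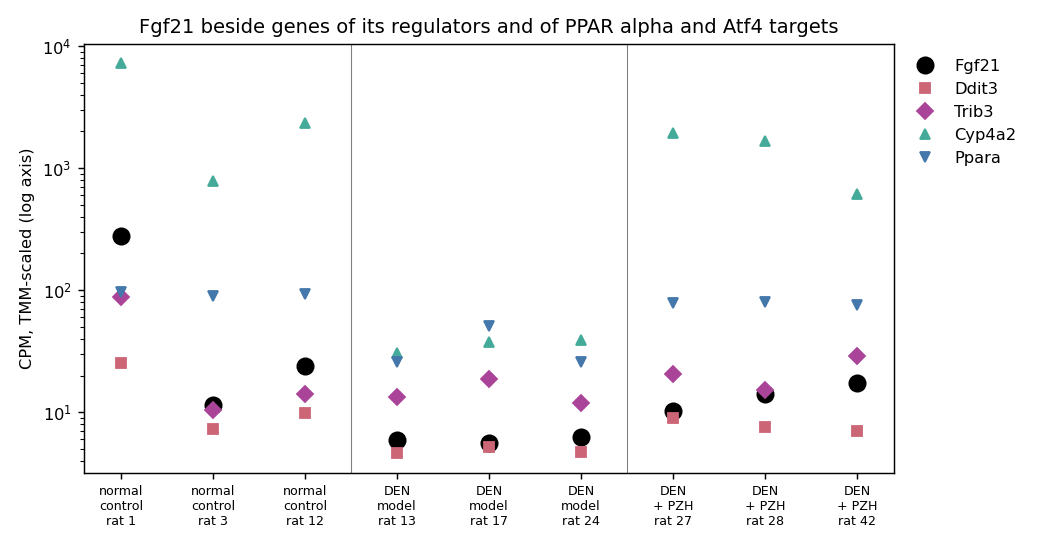
CPM of Fgf21, its regulators Ddit3 and Ppara, the Atf4 target Trib3 and the PPAR alpha target Cyp4a2 in each of the 9 rats (vertical log axis). Normal control rat 1 is the highest in all 5 genes, in Ppara by little (96.9 CPM against 89.9 and 93.1 in rats 3 and 12). The DEN model rats are the lowest in Fgf21, Ddit3, Cyp4a2 and Ppara but not in Trib3. Trib3 was picked after its values were seen. Of the Atf4 targets not shown, Chac1, Sesn2, Ddit4 and Vldlr were higher in normal control rat 12 than in rat 1.

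Across all 9 rats, the genes most like Fgf21 in log2(CPM + 1), among 11925 genes with a mean of at least 1 CPM, were Pwp2, Ddit3, Tmem201 and Eif2b4, with Pearson r of 0.968, 0.965, 0.961 and 0.950. Ddit3 encodes CHOP, a transcription factor of the stress response, and Eif2b4 a subunit of the translation initiation factor eIF2B. Without normal control rat 1 these r were 0.890, 0.859, 0.894 and 0.810. Ddit3 was at 25.1, 7.30 and 9.92 CPM in normal control rats 1, 3 and 12, at 4.63 to 5.20 CPM in DEN model and at 7.05 to 8.91 CPM in DEN + PZH rats. It fell by 1.52 ± 0.42 in DEN model against normal control (adjusted p = 0.018) and was at 0.72 ± 0.23 in DEN + PZH against DEN model, which did not pass (adjusted p = 0.061). These correlations describe 9 rats that share the group differences, and r was chosen as the highest among many genes.

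For Fgfr4 the most alike genes were Agxt, Gprc5c, Tysnd1 and Atg9a (r from 0.990 to 0.995). Agxt, a peroxisomal enzyme of hepatocytes that clears glyoxylate, was at 127 to 253 CPM in normal control, 9.84 to 29.5 CPM in DEN model and 46.1 to 99.7 CPM in DEN + PZH rats. Tysnd1 encodes a protease that processes peroxisomal enzymes. Fgfr3 was most like Nt5c3b, Unc5b, Cers4 and Dync1h1 (r from 0.973 to 0.982), of which Unc5b encodes a netrin receptor. Fgfr2 was most like Mfng, Dock6, S100a9 and P4ha1 (r from 0.978 to 0.986). Of these Mfng modifies Notch receptors and P4ha1 hydroxylates collagen. Fgfr1 was most like Pld3, Vps18, Sncg and Cyb5r1 (r from 0.962 to 0.976).

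Genes of bile acid synthesis and its control were lower in DEN model livers, 4 of 4 tested with TMM scaling and 3 of 4 on library totals. Cyp7a1, the rate-limiting enzyme of bile acid synthesis, was at 64.6, 102 and 125 CPM in normal control rats 1, 3 and 12, at 20.3, 42.5 and 19.7 CPM in DEN model rats, and at 87.9, 113 and 130 CPM in DEN + PZH rats. The DEN model rats were below all others, and the DEN + PZH rats shared the normal control range or passed just above it. Cyp7a1 fell by 1.81 ± 0.36 in DEN model (adjusted p = 0.0045) and rose by 2.02 ± 0.33 in DEN + PZH against DEN model (adjusted p = 0.012). Nr0b2, which encodes the repressor SHP, fell by 2.91 ± 0.42, Cyp8b1, the enzyme of cholic acid synthesis, by 2.48 ± 0.49 and Nr5a2, an activator of both enzymes, by 1.24 ± 0.27. Against DEN model, 2 of 4 rose in DEN + PZH livers (Cyp7a1 and Nr5a2, 1.11 ± 0.27), and 1 of 4 on library totals (Cyp7a1). Against normal control Cyp8b1 and Nr0b2 were still lower in DEN + PZH livers (-1.52 ± 0.27 and -1.66 ± 0.28), and 0 of 4 were called by edgeR without normal control rat 1.

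Among the other FGF ligands, 2 of 15 paracrine ligands passed the filter on low counts. Fgf1, a ligand of all FGF receptors, was at 9.05, 17.8 and 14.3 CPM in normal control, at 46.7, 56.4 and 34.7 CPM in DEN model and at 36.0, 32.5 and 29.9 CPM in DEN + PZH rats. It rose in DEN model by 1.76 ± 0.29 (adjusted p = 0.0018) and was higher in DEN + PZH than in normal control (1.25 ± 0.28, adjusted p = 0.037, and 0.095 without normal control rat 1), with -0.46 ± 0.21 between the DEN groups (adjusted p = 0.16). Fgf22 was lower in DEN model (-1.29 ± 0.45, adjusted p = 0.045), not on library totals (-0.45, adjusted p = 0.44) or without normal control rat 1 (-1.17, adjusted p = 0.15). Of 3 intracellular FGF homologous factors tested, Fgf12 (1.99 ± 0.69) and Fgf13 rose in DEN model, Fgf13 at least 2.81-fold from 0 counts in all normal control rats.

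Of 4 co-receptors and receptor-like proteins tested, 3 rose and 1 fell in DEN model against normal control. Among all genes tested 25.3% rose and 20.5% fell. Flrt3 and Flrt2, membrane proteins that bind FGF receptors, rose by 3.92 ± 0.38 and 3.74 ± 0.43, and Il17rd (Sef), an inhibitor of FGF signalling, by 2.70 ± 0.53. Fgfrl1, a receptor-like protein without the kinase, fell by 1.09 ± 0.25. Flrt3 and Flrt2 fell by 2.09 ± 0.41 and 1.16 ± 0.33 in DEN + PZH against DEN model, and Fgfrl1 rose by 0.72 ± 0.19. Both calls of Fgfrl1 were lost on library totals (-0.23, adjusted p = 0.52, and 0.04, adjusted p = 0.9), where 3 of the 4 rose in DEN model and 3 fell with PZH. Against normal control Flrt2 was the 1 gene called in DEN + PZH livers, higher by 2.55 ± 0.56, and 0 were called without normal control rat 1 against 2 with DESeq2 or on library totals.

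Heparan sulphate proteoglycans hold FGFs at the cell surface. Of 17 of these genes and their enzymes tested 6 rose and 3 fell in DEN model livers, where 25.3% of all genes rose and 20.5% fell. Gpc3, a glypican known as a marker of HCC, was at 0.937, 1.01 and 1.14 CPM in normal control, at 110, 35.3 and 99.6 CPM in DEN model and at 14.1, 22.3 and 27.98 CPM in DEN + PZH rats. It rose by 6.32 ± 0.50 (adjusted p = 0.00011), fell by 1.91 ± 0.43 in DEN + PZH against DEN model and stayed above normal control by 4.37 ± 0.35. The sulphatase gene Sulf1 rose by 4.40 ± 0.52 and the glypican Gpc6 by 4.03 ± 0.54, and Hs6st2, a sulphotransferase at 0 counts in all normal control rats, rose at least 2.77-fold. The 3 that fell, named after their values were seen, were the syndecans Sdc4 (-2.16 ± 0.25) and Sdc2 (-2.02 ± 0.32) and Ndst1 (-1.02 ± 0.18). Among the DEN + PZH livers 2 rose and 4 fell against DEN model, where 8.72% of all genes rose and 10.3% fell. Against normal control 2 of 15 were higher, 1 without normal control rat 1, where 4.07% of all genes were higher. On library totals 11 rose and 2 fell in DEN model against normal control, and 2 rose and 11 fell in DEN + PZH against DEN model. Over all genes called on that scale, 89.5% were higher in the first of these comparisons and 8.89% in the second.

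Downstream of the receptors, 15 adaptors and kinases were tested, and 10 of them did not pass in DEN model against normal control. Mapk3 (ERK1) rose by 0.97 ± 0.21, and Hras, Map2k2 and Sos1 fell by 1.14 ± 0.22, 1.06 ± 0.20 and 0.62 ± 0.21. The second that rose, Shc1, had 0.59 ± 0.19. In the same comparison 25.3% of all genes tested rose and 20.5% fell. For DEN + PZH against DEN model these shares were 8.72% and 10.3%. Relative to DEN model, 2 of the 15 were called in DEN + PZH livers, where Mapk3 fell by 0.99 ± 0.21 and Map2k2 rose by 0.69 ± 0.18, and against normal control 0 of 15 were called by edgeR, DESeq2 or on library totals (1 at an unadjusted p under 0.05). On library totals 9 adaptors and kinases rose and 0 fell in DEN model against normal control, and 0 rose and 9 fell in DEN + PZH against DEN model. On that scale 9084 of all 14255 genes were called in the first of these comparisons, 89.5% of them higher. In the second 6252 of 14272 were called, 8.89% of them higher.

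Of 13 feedback inhibitors and targets of FGF and ERK signalling tested, 5 rose and 1 fell in DEN model livers. There 25.3% of all genes tested rose and 20.5% fell. Etv4, an ETS transcription factor induced by FGF, was at 0 to 0.168 CPM in normal control, at 3.78, 1.88 and 10.04 CPM in DEN model and at 0.256, 0.348 and 0.214 CPM in DEN + PZH rats. It rose by 5.56 ± 0.93 (adjusted p = 0.002) and fell by 4.22 ± 0.72 in DEN + PZH against DEN model (adjusted p = 0.013). Dusp4, a phosphatase of ERK, rose by 3.22 ± 0.59 and fell by 2.18 ± 0.54, and Etv1 rose by 1.80 ± 0.58. The groups overlapped in Etv1, at 1.95, 1.93 and 0.839 CPM in normal control rats 1, 3 and 12. DEN model rats 13, 17 and 24 had 6.92, 1.78 and 7.43 CPM. The other two that rose were Spry2 (1.49 ± 0.28), a feedback inhibitor of receptor tyrosine kinases, and Etv5, at 4.78 to 6.94 CPM in normal control and 10.7 to 17.2 CPM in DEN model rats, which fell by 1.40 ± 0.31 in DEN + PZH against DEN model. Egr1, an immediate early gene of ERK, was at 309, 26.2 and 280 CPM in normal control rats 1, 3 and 12 and at 34.9 to 52.1 CPM in DEN model rats, and went the other way (-2.22 ± 0.71). Its call was lost on library totals (-1.42, adjusted p = 0.083) and without normal control rat 1 (-1.83, adjusted p = 0.11). The list counted 9 higher and 0 lower in DEN model on library totals, and 4 higher and 0 lower without that rat. With PZH, 1 rose and 3 fell against DEN model, where 8.72% of all genes rose and 10.3% fell. The 1 that rose was Egr1 (1.54 ± 0.39, adjusted p = 0.032), at 143, 173 and 55.7 CPM in DEN + PZH rats 27, 28 and 42. On library totals 0 of the list rose and 8 fell. Over all genes called on library totals, 89.5% were higher in DEN model against normal control and 8.89% in DEN + PZH against DEN model. Dusp6, often used as a readout of FGF signalling, was at 51.6 to 76.0 CPM in normal control, 52.0 to 67.2 CPM in DEN model and 54.0 to 82.1 CPM in DEN + PZH rats, ranges that overlap. Against normal control 0 of 12 were called in DEN + PZH livers by edgeR, DESeq2 or on library totals, and 4 had an unadjusted p under 0.05.

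**Figure D5:**
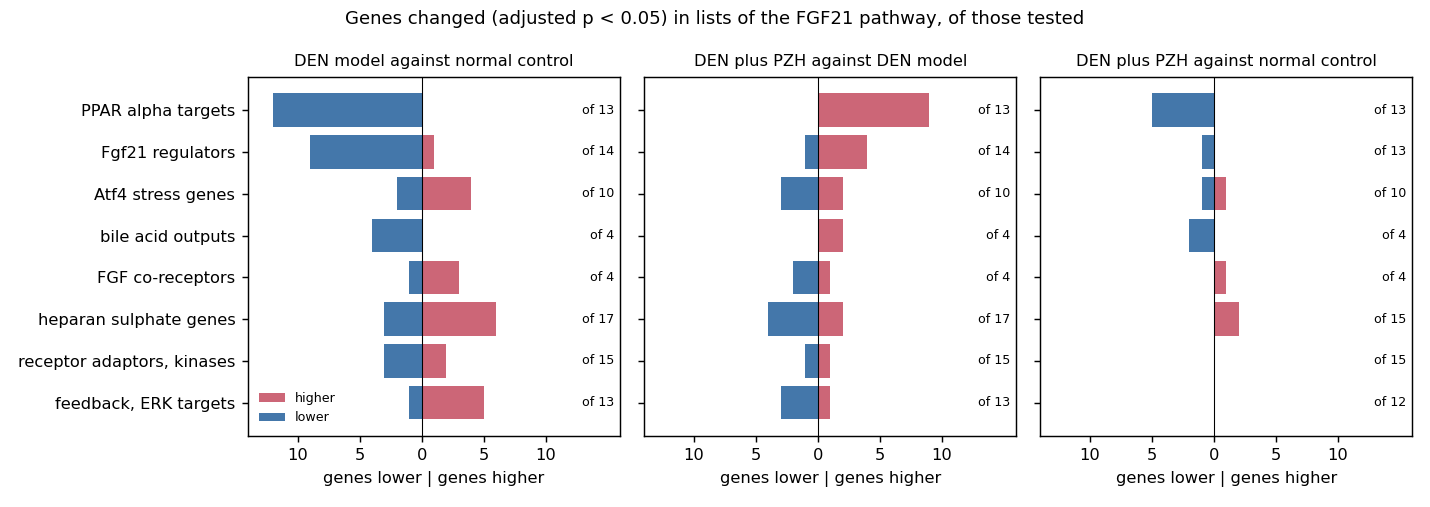
Number of genes lower (left of 0) and higher (right of 0) at an adjusted p under 0.05 in 8 gene lists around Fgf21 and its receptors, of the number tested printed at the right, in the 3 comparisons with TMM scaling. PPAR alpha targets show 12 genes lower in DEN model livers and 9 higher in DEN + PZH against DEN model livers. Of all genes tested, 25.3% were higher and 20.5% lower in DEN model livers. In DEN + PZH against DEN model livers 8.72% were higher and 10.3% lower.

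Markers of several liver cell types differed between the groups. The summed level of 8 hepatocyte markers was 129506 to 142918 CPM in normal control, 21745 to 53100 CPM in DEN model and 95100 to 139121 CPM in DEN + PZH rats, and 4 of 8 fell in DEN model against normal control (Ttr, Apoc3, Ambp and Alb) and 3 of 8 rose in DEN + PZH against DEN model. Hepatocyte markers, Alb above all, were abundant in all 9 libraries, which were labelled as liver. Stellate cell and myofibroblast markers summed to 195 to 323, 1049 to 3201 and 599 to 725 CPM in the same order, with 7 of 8 higher in DEN model and 5 of 8 lower in DEN + PZH against DEN model, Col1a1 and Acta2 among them. The 6 cholangiocyte and ductular markers summed to 13.4 to 21.1, 235 to 754 and 80.8 to 108 CPM, with 6 of 6 higher in DEN model and 6 of 6 lower in DEN + PZH against DEN model, and Krt7 was at 0 in normal control rats 1 and 3. In bulk liver, fewer cells of a type and less RNA per cell cannot be told apart, and the part of cell make-up in the levels of Fgf21 and its receptors was not tested.

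Of the remaining markers, endothelial and macrophage sums overlapped between all groups, and lymphocyte sums were higher in DEN model than in both other groups. Endothelial markers summed to 334 to 411 CPM in normal control, 219 to 414 in DEN model and 295 to 414 in DEN + PZH rats, with 2 of 5 higher and 2 of 5 lower in DEN model, and 2 higher and 0 lower on library totals. Macrophage markers summed to 428 to 836, 394 to 530 and 223 to 516 CPM, with 2 of 6 lower in DEN model and 3 of 6 lower in DEN + PZH against DEN model. Scaled by library totals, 3 macrophage markers were higher and 1 lower in DEN model. With TMM scaling 25.3% of all genes tested were higher and 20.5% lower in DEN model. In DEN + PZH against DEN model 10.3% were lower. Lymphocyte markers summed to 25.4 to 48.1, 79.8 to 123 and 38.7 to 47.2 CPM, with 4 of 6 higher in DEN model. Without normal control rat 1, 1 of these 6 was called. In DEN + PZH against DEN model all 6 had a log2 fold change below 0 (median -1.34), and 1 was called lower.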

How the data were processed

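Libraries of liver mRNA were sequenced on an Illumina NovaSeq. The submitters' processing notes name fastp, HISAT2 2.1.0, StringTie 1.3.3b and edgeR 3.30.3, and the genome build is not given in the sources used here. The authors deposited 1 table of the whole series, with raw read counts per gene and rat, not normalized. The same table holds FPKM, which the authors scaled for transcript length and library size. It also holds comparisons made by the authors (fold changes on the log2 scale with P and Q values), which were not used. Whether strand was used in counting is not given, so reads of overlapping antisense genes cannot be told apart.

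Counts of the 6 rats in each comparison were filtered with filterByExpr, scaled with TMM and tested without covariates by the quasi-likelihood test of edgeR 4.0.16 in R 4.3.3, with Benjamini-Hochberg adjustment over all genes tested. SE is the absolute log2 fold change divided by the square root of F. Alternatives used DESeq2 1.42.0, limma 3.58.1 on log2(FPKM + 0.1), library totals, other filters, all 9 rats, a thinned deepest library and each rat left out. A robust fit, and list counts with other scalings or without normal control rat 1, were added after seeing the data. Ratios used FPKM + 0.01 and exact permutation tests in scipy 1.17.1. Ratios with Klb could not be computed. Scripts were tested on simulated data in which few genes changed. That setting does not bear on the choice between TMM and library totals. A floor of 3 counts equals 0.125 to 0.252 CPM and covers counting error only. Promoters come from RefSeq (GRCr8).

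Named were the genes of the title, up to 4 genes of each list with the largest absolute log2 fold change among those called in any comparison, list genes needed beside a member, and the 4 genes most correlated with each. The members and lists were chosen with earlier results of these data known. The rat numbers name animals. The edgeR p-values set each difference against the spread between 3 rats in each group, estimated with help from all genes tested.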

Additional observations from a re-analysis of the deposited data

How the results depend on the processing

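Of 220 alternative values of the log2 fold changes of Fgf21 and the receptors, 216 kept the direction. The 4 others were near 0, in DEN + PZH against normal control: Fgfr2 with library totals (0.095) and limma (0.099), and Fgfr1 without normal control rat 3 (-0.036) or DEN + PZH rat 27 (-0.28). All 72 alternatives of the ratios kept their direction. Those that left out 1 rat could not turn it, because the groups did not overlap. All 36 shares without 1 rat stayed within 1 SD, which is no check. Leaving 1 of 3 rats out cannot move a mean by 1 SD. The ratios with Klb were not run. No paired analysis was possible because the groups share no rat numbers. The cause of a lost or gained call was not tested.

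The study's thresholds were applied to the edgeR fits made here. For DEN model against normal control and for DEN + PZH against DEN model the paper reports larger counts of genes. Here the thresholds called 1753, 347 and 310 genes in DEN model against normal control, DEN + PZH against DEN model and DEN + PZH against normal control, where the adjusted p called 6529, 2722 and 696. They called 0 members, against 5 and 3 in the first and second comparison, at unchanged log2 fold changes of -4.09 (Fgf21), 0.98 (Fgfr1), 0.93 (Fgfr2), 1.68 (Fgfr3) and -1.56 (Fgfr4) in the first and of 1.24 (Fgf21), -1.02 (Fgfr2) and 0.94 (Fgfr4) in the second. In DEN model against normal control, limma on FPKM did not call Fgf21 (-1.95).

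In DEN + PZH against DEN model, library totals called 6252 genes and limma 5764, and the share of higher genes among the calls went from 45.7% to 8.89% and 9.11%. Both ended the calls of Fgf21 (0.57 and 0.55) and Fgfr4 (0.29 and 0.29) and added Fgfr1 (-1.57 and -1.57) and Fgfr3 (-1.22 and -1.18). The fit of all 9 rats ended the call of Fgf21 (1.21) and added Fgfr1 (-0.92), which was also added by DESeq2 (-0.88) and by a minimum of 10 counts in every rat (-0.92). Leaving out 1 rat gave 271 (without DEN model rat 13) to 3319 genes (without DEN model rat 17) and 725, 1178 and 1221 without DEN model rat 24 and DEN + PZH rats 28 and 42. It gave 0 to 4 members called, Fgf21 from 1.06 to 1.41, Fgfr1 from -1.22 to -0.72, Fgfr2 from -1.15 to -0.76 and Fgfr4 from 0.81 to 1.08.

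In DEN + PZH against normal control, DESeq2 called 1332 genes and 1 member, Fgfr3 (1.09), and a minimum of 10 counts in every rat left 340 genes. The share of higher genes among the calls was 78.0%, and 90.0% with library totals. Leaving out 1 rat gave 207 (without normal control rat 1) to 1326 genes (without DEN + PZH rat 27), 0 to 1 members called, Fgfr1 from -0.28 to 0.20 and Fgfr4 from -0.77 to -0.56. In DEN model against normal control that share went from 55.3% to 89.5% with library totals. Without any one rat this comparison kept all 5 calls. Fgf21 rested on 113 to 314 reads in 8 of 9 rats, and depth limits Etv4, Fap and the other genes near 3 counts most.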

Other observations

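Ligands too low for the filter were read as counts without a test. The deposited gene Fgf19, under the name of the intestinal hormone that acts on Fgfr4, was at 0 in all normal control and DEN + PZH rats, and at 0.127, 0 and 2.45 CPM in DEN model rats 13, 17 and 24, with 59 reads in rat 24. Fgf23, known as a hormone of bone, was at 1.57, 0.792 and 0 CPM in DEN model rats and at 0.299 CPM or less in all others. Fgf7, a mesenchymal ligand of Fgfr2, was at 0 in all normal control rats, at 0.0849 to 0.498 CPM in DEN model and at 0.0712 to 0.626 CPM in DEN + PZH rats. Fgf9 was at 0 to 0.0763 CPM in normal control, 0.495 to 0.830 CPM in DEN model and 0.214 to 0.348 CPM in DEN + PZH rats. Kl, the co-receptor of Fgf23, was at 0.156 CPM or less in all 9 rats.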
